A study of Mus musculus with 12 samples.

Results

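Expression of 9 genes of fatty acid uptake and activation was followed in mouse bone marrow-derived macrophages that lack the *Mirc11* microRNA cluster. The genes were chosen by symbol from a table of 23863 genes: *Lpl*, *Cd36*, *Fabp4* and *Fabp5*, the long-chain acyl-CoA synthetase genes *Acsl1*, *Acsl3*, *Acsl4* and *Acsl5*, and the lipid droplet gene *Plin2*. All 9 were found, and all 9 were among the 10137 genes with a mean of at least 1 FPKM (fragments scaled to transcript length and to the mapped total, so a level per length) that were tested. *Acsl1*, *Lpl* and *Fabp4* were known to be lower in *Mirc11-/-* M1 cells when the list was drawn up, so values in that contrast are given as a description and without a test.

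The cells came from marrow of *Mirc11-/-* (also named mirn23a-/-) and wildtype C57BL/6 mice aged 6 to 8 weeks, cultured for 7 days in medium conditioned by L929 cells, a source of the macrophage growth factor M-CSF. They were then polarized for 24 h under M1 conditions, with 100 ng/ml LPS and interferon gamma, or under M2 conditions, with 20 ng/ml IL-4 and 20 ng/ml IL-13. The dose of interferon gamma is 50 ng/ml in the protocol and 10 ng/ml in the treatment field of the labels. RNA was sequenced from 12 libraries, 3 each of *Mirc11-/-* M1, wildtype M1, *Mirc11-/-* M2 and wildtype M2 cells, and no unstimulated cells are among them. Per-library values below follow the numbers in the titles, Ako2271, Ako2272 and Ako2273 for *Mirc11-/-* and Wt2260, Wt2261 and Wt2262 for wildtype cells. The labels do not say that the numbers are animals, so the p-values cover library-to-library spread alone, which may be technical, and genotype cannot be told apart from whatever else the numbers mark.

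Title and treatment field named different polarizations for 6 of the 12 libraries, and groups follow the titles. *Nos2*, the nitric oxide synthase gene of M1 cells, was at 938 to 1630 FPKM in the libraries titled M1 and at 0.80 to 2.26 FPKM in those titled M2. Within M1 it was lower in *Mirc11-/-* libraries (938 to 1083 FPKM) than in wildtype ones (1379 to 1630 FPKM), without overlap. The part of this difference in the member values was not tested. *Mrc1*, the mannose receptor gene of M2 cells, was at 0.12 to 0.40 FPKM in the M1 and at 229.9 to 301 FPKM in the M2 titles. Its genotypes overlapped in both states. Libraries held 14366 to 14708 genes above 0 and correlated at 0.988 to 0.997 within a group (Pearson, across genes). The absolute depth is unknown, and relative depth ranged over 0.795 to 1.27 times that of library Wt2260M1. *Mir23a* and *Mir24-2* had a listed value of 0 throughout, and *Mir27a* in all but 1 wildtype M1 library, so these values check nothing about the genotype. All 9 macrophage markers were measured at a mean of at least 1 FPKM. Their sums were 12262 to 13144 FPKM in *Mirc11-/-* M1, 12095 to 13140 in wildtype M1, 11875 to 13537 in *Mirc11-/-* M2 and 13357 to 14111 in wildtype M2 libraries. These sums overlapped between the genotypes in both states. Of the 9 markers, single levels are given only for *Csf1r* and *Cd68*, picked after values were seen. *Csf1r* was at 373 to 395 FPKM in *Mirc11-/-* M1 and 465 to 479 FPKM in wildtype M1 libraries, and overlapped in M2. *Cd68* was at 1035 to 1113.5 FPKM in *Mirc11-/-* M2 and 1176 to 1291 FPKM in wildtype M2 libraries, and overlapped in M1.

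Long-chain fatty acids reach a macrophage in lipoprotein triglyceride or bound to albumin. Lipoprotein lipase, the product of *Lpl*, is secreted and frees fatty acids from triglyceride at the cell surface, and the scavenger receptor CD36 takes up fatty acids and oxidized lipoproteins. Inside the cell, the fatty acid-binding proteins FABP4 and FABP5 carry them, and the ACSL enzymes join them to coenzyme A, the step that precedes their use in membranes, oxidation or storage. Perilipin 2, the product of *Plin2*, coats the lipid droplets in which macrophages store triglyceride and cholesteryl ester. *Acsl1* is known in macrophages as a gene induced by LPS, and *Acsl4* codes for the enzyme with a preference for arachidonic acid.

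The deleted cluster encodes 3 microRNAs that lie on chromosome 8, as do *Acsl1* and *Lpl*. Their mature sequences are shown because the seeds, bases 2 to 8 and here in capitals, are what was searched for in the members' transcripts. They were taken from RefSeq, on the plus strand of GRCm38, at chr8:84208563-84208583, chr8:84208727-84208747 and chr8:84208875-84208896.
mmu-miR-23a-3p: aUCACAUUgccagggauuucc
mmu-miR-27a-3p: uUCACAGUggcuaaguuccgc
mmu-miR-24-3p: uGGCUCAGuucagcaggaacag

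Matches to the seeds (AATGTGA for miR-23a, ACTGTGA for miR-27a and CTGAGCC for miR-24, on the transcript strand only) were looked for in the longest 3' UTR of each gene in GENCODE vM21. *Lpl* held a match to each of the 3 seeds within 2428 bases, and 312 of 21153 genes with a 3' UTR (1.47%) did so. *Acsl1* and *Acsl5* held 1 match each, to miR-27a, and *Acsl3* and *Acsl4* 1 match each, to miR-23a. None was found in *Cd36*, *Fabp4*, *Fabp5* or *Plin2*. Over all genes, whatever the length of the 3' UTR, 15.7% held a match for miR-23a, 17.2% for miR-27a and 17.6% for miR-24. A match describes letters and does not show that a microRNA acts there. *Fabp4*, the only member that passed the test between genotypes in M2, held no match. *Lpl* and *Acsl1* differed most between genotypes in M1, where both were lower in *Mirc11-/-* cells. Their matches are shown with the matching bases in capitals. They lie at chr8:68906346-68906353, chr8:68906413-68906419 and chr8:68906815-68906822 for *Lpl* and at chr8:46535310-46535316 for *Acsl1* (GRCm38, plus strand).
Lpl, miR-27a: gctgggagcagaaACTGTGAAat
Lpl, miR-23a: gtagtcgtcattcAATGTGAtt
Lpl, miR-24: attgtctgtctcaCTGAGCCAac
Acsl1, miR-27a: gcggccatgctcaACTGTGAca

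Among the synthetase genes, *Acsl1* differed most between the genotypes. *Acsl1* was at 127, 115 and 138 FPKM in *Mirc11-/-* M1 libraries, against 429, 484 and 359.8 FPKM in wildtype M1 libraries. In M2 cells it was at 35.7, 31.9 and 32.9 FPKM in *Mirc11-/-* libraries, against 27.0, 28.0 and 26.7 FPKM in wildtype libraries. The *Mirc11-/-* libraries were thus all below wildtype in M1 and all above it in M2. In M1 the *Mirc11-/-* mean was 70.1% lower, at 127 ± 11.5 FPKM against 425 ± 62.4 FPKM in wildtype cells (SD, n = 3 each), and the fitted log2 difference was -1.73 (SE 0.097). In M2 the mean was 22.9% higher in *Mirc11-/-* cells, at 33.5 ± 1.9 FPKM against 27.3 ± 0.70 FPKM in wildtype cells, and this difference of 0.29 did not pass the test (limma, adjusted p = 0.12). In *Mirc11-/-* M1 cells its range of 115 to 138 FPKM overlapped that of *Acsl5*, while in wildtype M1 cells it was the highest of the 4 synthetase genes in every library. From low to high, its group levels were wildtype M2, *Mirc11-/-* M2, *Mirc11-/-* M1 and wildtype M1, with no overlap between neighbours. In bulk RNA, fewer cells that express a gene and less RNA per cell cannot be told apart.

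*Acsl5*, whose product is found at mitochondria and the endoplasmic reticulum, was at 137, 139 and 135 FPKM in *Mirc11-/-* M1 libraries, against 124, 116 and 127 FPKM in wildtype M1 libraries. All 3 *Mirc11-/-* M1 libraries lay above the wildtype ones, by 0.16 on the log2 scale (SE 0.051). Its M2 values were 49.3, 49.0 and 51.0 FPKM in *Mirc11-/-* and 49.3, 54.2 and 53.8 FPKM in wildtype libraries, which overlapped (log2 difference -0.07, adjusted p = 0.51). *Acsl4* was at 33.3, 29.9 and 28.2 FPKM in *Mirc11-/-* M1 libraries, against 29.4, 32.9 and 29.9 FPKM in wildtype M1 libraries. These ranges overlapped, and the log2 difference was -0.01 (SE 0.066). In M2 *Acsl4* was at 18.9, 17.3 and 19.2 FPKM in *Mirc11-/-* libraries, against 17.3, 16.5 and 16.3 FPKM in wildtype libraries, without overlap but by only 0.14 on the log2 scale (adjusted p = 0.30). *Acsl3*, whose product is known at lipid droplets, was the weakest member at 1.44 to 1.55 FPKM in *Mirc11-/-* M1 and 1.50 to 1.80 FPKM in wildtype M1 libraries. M2 values were 2.98 to 3.81 FPKM in *Mirc11-/-* and 3.50 to 4.46 FPKM in wildtype libraries, a log2 difference of -0.24 (adjusted p = 0.17).

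As a share of the summed FPKM of the 4 synthetase genes, *Acsl1* took 42.9% ± 2.6 in *Mirc11-/-* M1 cells, against 73.1% ± 3.4 in wildtype M1 cells (SD, n = 3 each). The sum itself was 296 ± 9.2 FPKM in *Mirc11-/-* M1 and 579 ± 58.9 FPKM in wildtype M1 cells. *Acsl5* accounted for 46.3% ± 2.1 of the sum in *Mirc11-/-* M1 and 21.3% ± 3.1 in wildtype M1 cells. *Acsl4* held 10.3% ± 0.93 in *Mirc11-/-* M1 and 5.32% ± 0.40 in wildtype M1 cells. In M2 cells the *Acsl1* share was 31.9% ± 1.3 in *Mirc11-/-* and 27.1% ± 0.46 in wildtype cells, and the sum was 105 ± 3.3 FPKM in *Mirc11-/-* and 100.5 ± 2.6 FPKM in wildtype cells. Shares of 1 sum move together, so these are a description of the makeup and were not tested.

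**Figure D1:**
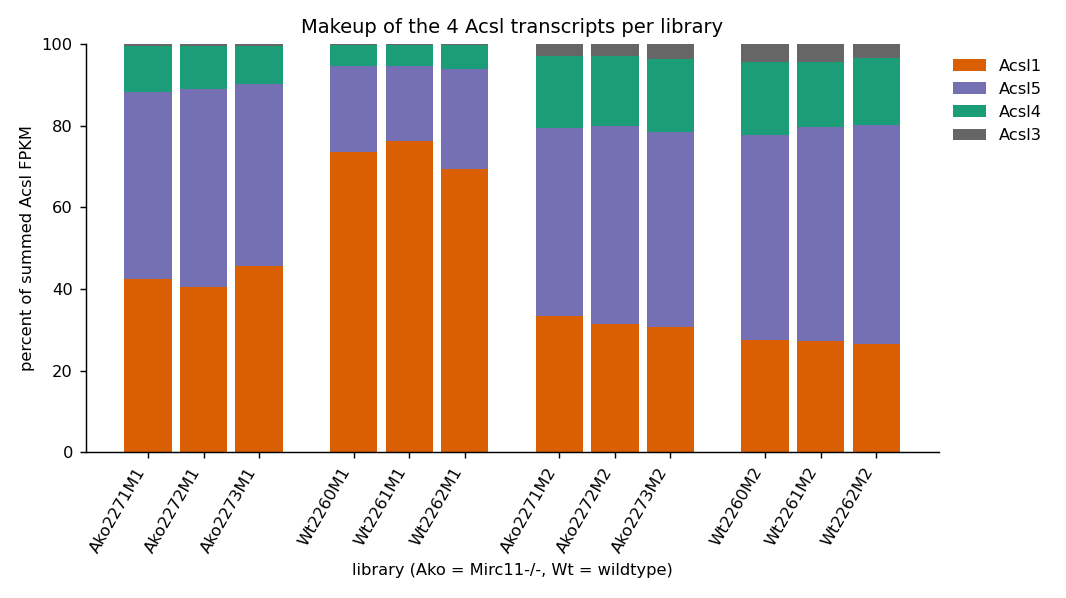
Share of each Acsl gene in the summed FPKM of the 4 (vertical axis, percent) in each of the 12 libraries (horizontal axis), *Mirc11-/-* left of wildtype within M1 and M2. *Acsl1* takes 40.4% to 45.6% in the *Mirc11-/-* M1 libraries, where *Acsl5* takes 44.6% to 48.6%, and 69.5% to 76.3% in the wildtype M1 libraries.

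*Lpl*, the extracellular lipase, was at 10.9, 11.1 and 14.8 FPKM in *Mirc11-/-* M1 libraries, against 39.3, 33.6 and 44.3 FPKM in wildtype M1 libraries. In M2 it was at 761, 772 and 881 FPKM in *Mirc11-/-* libraries, against 1062, 1150.3 and 1029.6 FPKM in wildtype libraries. The *Mirc11-/-* libraries lay below wildtype in both states. The mean was 68.6% lower in *Mirc11-/-* M1 cells (log2 difference -1.60, SE 0.12) and 25.5% lower in *Mirc11-/-* M2 cells. The M2 difference of -0.43 (SE 0.12, 95% interval -0.68 to -0.17) did not pass after adjustment over all genes (limma, adjusted p = 0.064). It passed in 4 of 18 alternative fits, among them those without library Ako2273M1 (adjusted p = 0.028) or Wt2261M1 (0.048), with a range of 0.028 to 0.21 over all of them. The order of the 4 group levels was *Mirc11-/-* M1, wildtype M1, *Mirc11-/-* M2, wildtype M2, and no neighbours in it overlapped.

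*Cd36*, the membrane receptor, was at 29.1, 26.7 and 30.3 FPKM in *Mirc11-/-* M1 libraries, against 29.0, 33.8 and 25.0 FPKM in wildtype M1 libraries. M2 libraries gave 178, 181 and 212 FPKM in *Mirc11-/-* cells, against 154, 187 and 136 FPKM in wildtype cells. The genotypes overlapped in both states, with log2 differences of -0.02 (SE 0.12) in M1 and 0.26 (SE 0.12, 95% interval -0.0044 to 0.53, adjusted p = 0.28 by limma) in M2. The ratio of *Lpl* to *Cd36* was 0.427 ± 0.057 in *Mirc11-/-* M1 and 1.37 ± 0.39 in wildtype M1 cells, and 4.23 ± 0.063 in *Mirc11-/-* M2 and 6.87 ± 0.70 in wildtype M2 cells (SD, n = 3 each).

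*Fabp4*, the carrier shared by adipocytes and macrophages, was at 3.62, 4.42 and 4.68 FPKM in *Mirc11-/-* M1 libraries, against 6.59, 6.08 and 6.14 FPKM in wildtype M1 libraries. In M2 it was at 74.2, 84.5 and 91.1 FPKM in *Mirc11-/-* libraries, against 118, 158 and 126 FPKM in wildtype libraries. Both states gave lower values in every *Mirc11-/-* library, and the group levels stood in the same order as for *Lpl*, without overlap between neighbours. In M2 the mean was 83.3 ± 8.5 FPKM in *Mirc11-/-* and 134 ± 21.0 FPKM in wildtype cells (SD, n = 3 each), 37.9% lower, and *Fabp4* fell in *Mirc11-/-* M2 cells (log2 difference -0.68, SE 0.11, limma adjusted p = 0.0046). The adjusted p stayed at 0.0043 to 0.039 in 17 of 18 alternatives and was 0.097 with only the 6 libraries whose labels agree. In M1 the mean was 32.4% lower in *Mirc11-/-* cells (log2 difference -0.48, SE 0.11, not tested).

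*Fabp5*, the second carrier, was at 92.3, 121 and 172 FPKM in *Mirc11-/-* M1 libraries, against 166, 218 and 158 FPKM in wildtype M1 libraries. The M2 values were 599, 685 and 678 FPKM in *Mirc11-/-* libraries, against 717, 875 and 789.6 FPKM in wildtype libraries. The M1 ranges overlapped, with the widest replicate spread of any member (coefficient of variation 31.6% in *Mirc11-/-* M1 cells), and the M2 difference of -0.28 (SE 0.19) did not pass (adjusted p = 0.49). *Fabp5* levels are uncertain, since 33.1% of the 31-base stretches of its transcripts also occur in 5 other genes, mostly *Gm6166*, and the authors' counting could split such reads. In every library *Fabp5* exceeded *Fabp4*, 29.9 ± 6.1 times in *Mirc11-/-* M1, 28.9 ± 6.0 times in wildtype M1, 7.87 ± 0.37 times in *Mirc11-/-* M2 and 5.95 ± 0.37 times in wildtype M2 cells.

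*Plin2*, the droplet coat gene, was at 93.6, 108 and 115 FPKM in *Mirc11-/-* M1 libraries, against 109, 119.5 and 116 FPKM in wildtype M1 libraries. In M2 it was at 144, 174 and 166 FPKM in *Mirc11-/-* libraries, against 176, 204 and 216 FPKM in wildtype libraries. The M1 ranges overlapped (log2 difference -0.13, SE 0.096). In M2 every *Mirc11-/-* library lay below wildtype, by 0.30 on the log2 scale (SE 0.096), and this did not pass (adjusted p = 0.10). *Plin2* shares 7.56% of its 31-base stretches with *Gm12551*.

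**Figure D2:**
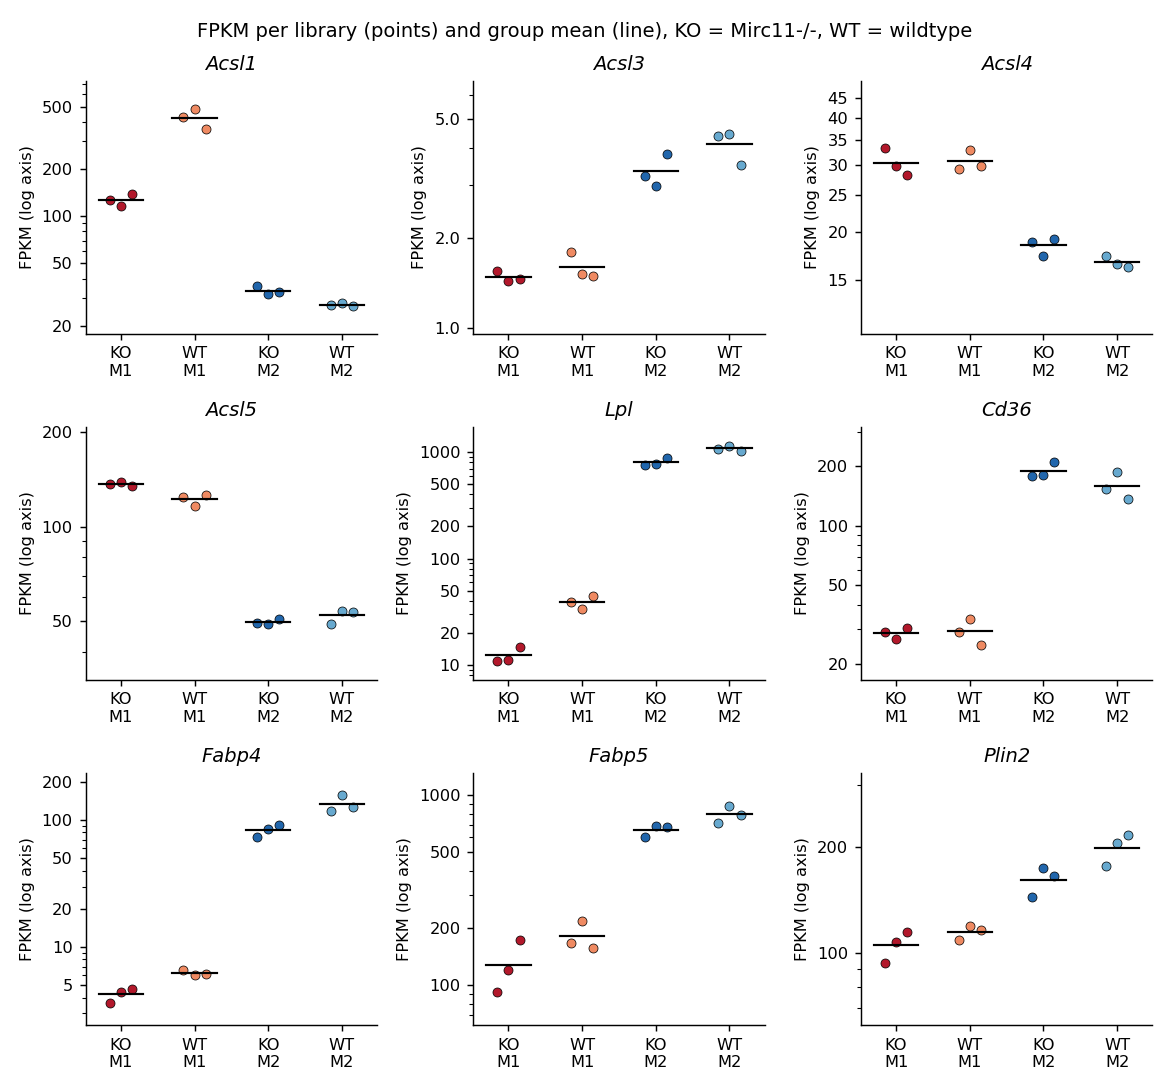
FPKM of the 9 genes (vertical, log axes with a separate range for each gene) in each library (points) with the group mean (lines), *Mirc11-/-* (KO) left of wildtype (WT) in M1 and in M2. *Lpl* spans 10.9 to 1150.3 FPKM and *Acsl4* 16.3 to 33.3 FPKM, and *Acsl1* shows the *Mirc11-/-* libraries below wildtype in M1 and above it in M2.

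Counted over the 9 genes, 3 lay wholly lower in *Mirc11-/-* M1 cells (*Acsl1*, *Lpl*, *Fabp4*), where 18.8% of all tested genes did, and 1 lay wholly higher (*Acsl5*, with 12.7% of all genes). The choice of members used this contrast, so nothing is read from these counts. Of all tested genes, 13.9% passed in M1 (5.99% higher, 7.96% lower), and the median log2 difference was -0.13 over the members and -0.02 over all genes. In M2, 1 of 9 members passed the test and was lower (*Fabp4*), none was higher by limma (4 lower and 1 higher at an unadjusted p under 0.05) and 8 did not pass, against 4.59% of all genes past the threshold, 2.09% lower and 2.5% higher. The M2 libraries did not overlap for 4 members that were lower (*Lpl*, *Fabp4*, *Fabp5*, *Plin2*) and 2 that were higher (*Acsl1*, *Acsl4*), against 11.8% and 11.9% of all genes. The members' median log2 difference in M2 was -0.24, beside 0.0043 over all genes.

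**Figure D3:**
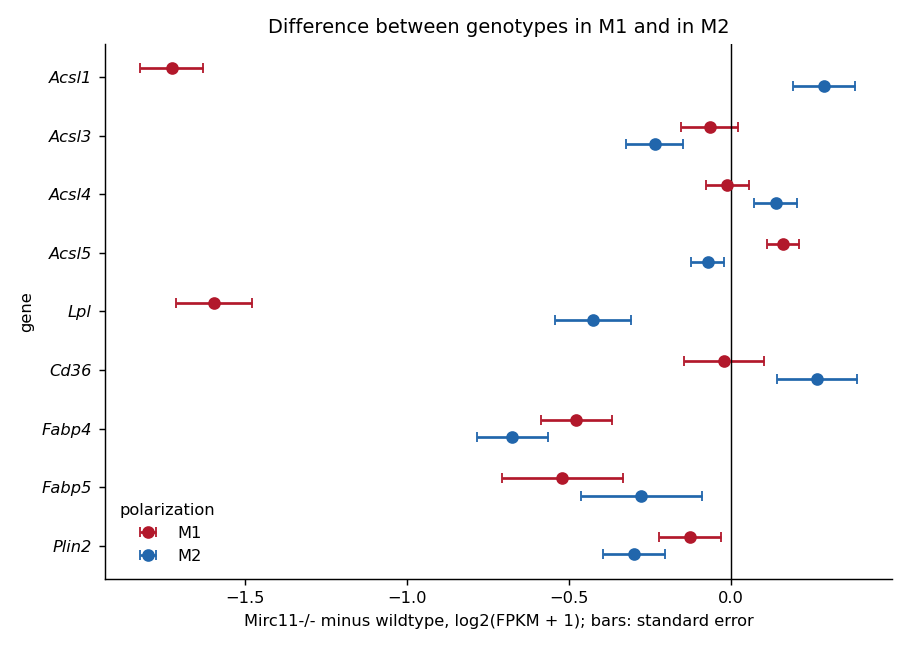
Difference between *Mirc11-/-* and wildtype cells on the log2(FPKM + 1) scale (horizontal axis, bars: standard error of the fit) for each gene (vertical axis), in M1 and in M2. *Acsl1* is at -1.73 in M1 and 0.29 in M2, *Lpl* at -1.60 and -0.43, and *Fabp4* at -0.48 and -0.68.

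The genotype difference in M1 minus that in M2 was -2.01 for *Acsl1* (SE 0.14) and -1.17 for *Lpl* (SE 0.17). For *Fabp4* it was 0.20 (SE 0.15). At its M1 levels of 3.62 to 6.59 FPKM, the 1 FPKM added before the log shrinks the M1 part more than the M2 part. The other 6 members lay between -0.29 (*Cd36*) and 0.23 (*Acsl5*), with a median over the 9 of -0.15, beside -0.03 over all genes, of which 1.85% passed (0.937% higher, 0.917% lower). These values contain the M1 contrast and are descriptions.

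*Acsl1* and *Lpl* lie on the chromosome of the deleted cluster, and the other 7 members on chromosomes 1 (*Acsl3*), 3 (*Fabp4*, *Fabp5*), 4 (*Plin2*), 5 (*Cd36*), 19 (*Acsl5*) and X (*Acsl4*). In M1, 22.4% of 558 tested genes of chromosome 8 passed, against 13.5% of 9549 on other chromosomes. In M2 the shares were 13.3% on chromosome 8 and 4.09% elsewhere. Of the 10 tested genes nearest to *Acsl1* (5 on each side), 2 rose and 4 fell in *Mirc11-/-* M1 cells, with log2 differences of -0.54 to 0.55, and none passed in M2. Of the 10 nearest to *Lpl*, 2 rose and 2 fell in M1, with differences of -0.34 to 0.66, and 2 rose and 1 fell in M2. Neither gene is next to the cluster, since 127 tested genes lie between *Lpl* and the cluster and 32 between *Acsl1* and *Lpl*. What DNA flanking the deletion contributes cannot be told apart from the loss of the cluster.

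M1 against M2 was compared within each genotype. In these comparisons, rose and fell mean higher and lower in M1 than in M2. Without unstimulated cells, a fall in M1 and a rise in M2 cannot be told apart. In *Mirc11-/-* cells 3 members rose in M1 (*Acsl1*, *Acsl5*, *Acsl4*) and 6 fell (*Lpl*, *Fabp4*, *Cd36*, *Fabp5*, *Acsl3*, *Plin2*), all without overlap. Of all genes 80% passed, with 26% higher and 54% lower, and 26.6% and 54.4% did not overlap in these directions. The same 3 members rose and the same 6 fell in wildtype cells, beside 78.6% of all genes, 26.6% higher and 52% lower (27.3% and 53.4% without overlap). With so many genes past the threshold, the sizes say more than the counts. In *Mirc11-/-* cells the median was -0.80 for the members and -0.21 for all tested genes. In wildtype cells these medians were -0.97 and -0.19, and the folds are to be read against these shifts. All 18 member calls were kept in the 19 alternative fits, other scalings included.

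*Acsl1* was 3.79-fold higher in *Mirc11-/-* M1 than in *Mirc11-/-* M2 cells (log2 difference 1.89, SE 0.097, limma adjusted p = 2.1e-09), and 15.6-fold higher in wildtype M1 than in wildtype M2 cells (3.90, adjusted p = 3.7e-12). Each genotype thus had more *Acsl1* in M1, and the step was smaller in *Mirc11-/-* cells by the difference between states given above, which was not tested. *Acsl5* was 2.75-fold higher in M1 in *Mirc11-/-* cells and 2.34-fold higher in wildtype cells. *Acsl4* was 1.65-fold higher in *Mirc11-/-* cells and 1.84-fold higher in wildtype cells. *Acsl3* moved the other way, by -0.80 on the log2 scale in *Mirc11-/-* and -0.97 in wildtype cells, at levels where the added pseudocount of 1 FPKM shrinks the fold.

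In *Mirc11-/-* cells *Lpl* was lower in M1 than in M2 by 5.93 on the log2 scale (SE 0.12, limma adjusted p = 5.4e-13). In wildtype cells it was lower in M1 by 4.76 (adjusted p = 3.7e-12). As a ratio of mean FPKM, M2 exceeded M1 by 65.5-fold in *Mirc11-/-* and 27.7-fold in wildtype cells. *Fabp4* fell in M1, with differences of -4.01 in *Mirc11-/-* and -4.21 in wildtype cells. The log2 difference of *Cd36* was -2.68 in *Mirc11-/-* and -2.40 in wildtype cells. That of *Fabp5* was -2.38 in *Mirc11-/-* and -2.14 in wildtype cells, and that of *Plin2* was -0.61 in *Mirc11-/-* and -0.78 in wildtype cells. *Lpl* and *Fabp5* were thereby the first and second most abundant members in both M2 groups, and in wildtype M1 cells *Acsl1* and *Fabp5* held these places. *Lpl* lay above 99.1% of tested genes in *Mirc11-/-* M2 cells (805 FPKM) and above 99.5% in wildtype M2 cells (1081 FPKM).

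**Figure D4:**
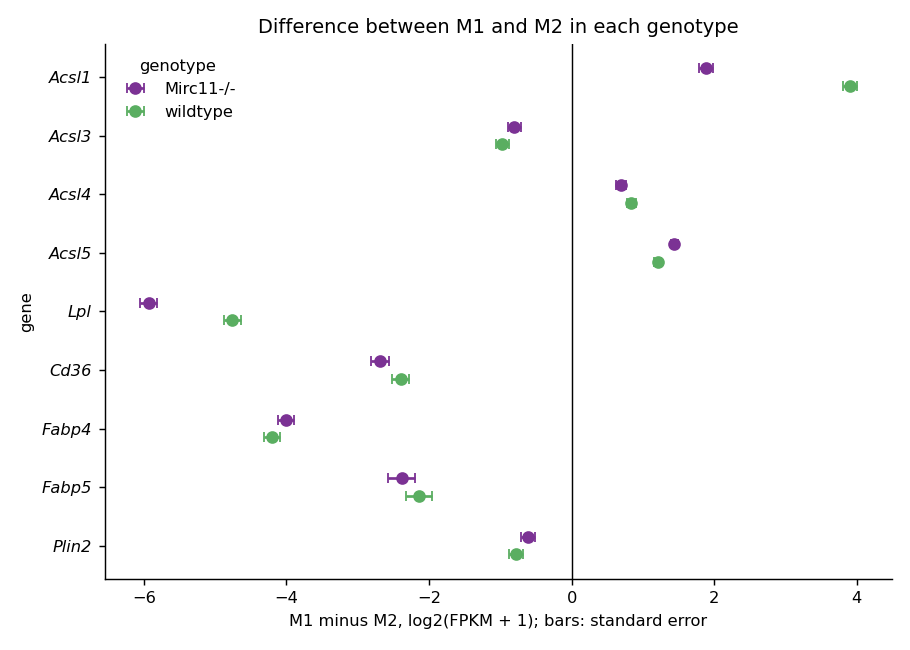
Difference between M1 and M2 on the log2(FPKM + 1) scale (horizontal axis, bars: standard error of the fit) for each gene (vertical axis), in *Mirc11-/-* and in wildtype cells. *Acsl1* is at 1.89 in *Mirc11-/-* and 3.90 in wildtype cells, *Lpl* at -5.93 and -4.76, and the other genes lie close together in the genotypes.

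Markers of other cells that carry these genes were read beside them. The 7 adipocyte markers summed to 19.2 to 20.2 FPKM in *Mirc11-/-* M1 and 16.8 to 19.4 FPKM in wildtype M1 libraries, and to 11.3 to 13.4 FPKM in *Mirc11-/-* M2 and 10.7 to 13.7 FPKM in wildtype M2 libraries. Nearly all of this was *Lipe*, the hormone-sensitive lipase gene, at 19.2 to 20.2 FPKM in *Mirc11-/-* M1, 16.8 to 19.4 FPKM in wildtype M1, 10.9 to 12.9 FPKM in *Mirc11-/-* M2 and 10.3 to 13.6 FPKM in wildtype M2 libraries. Of the others, *Lep* and *Cidec* were at 0 in every library, *Plin1* at or under 0.016 FPKM, and *Adipoq* at 0 in M1, at 0.396 to 0.538 FPKM in *Mirc11-/-* M2 and at 0.127 to 0.368 FPKM in wildtype M2 libraries. Endothelial markers summed to 13.1 to 15.3 FPKM in *Mirc11-/-* M1 and 8.60 to 11.0 FPKM in wildtype M1 libraries, and to 7.25 to 9.10 FPKM in *Mirc11-/-* M2 and 5.06 to 7.16 FPKM in wildtype M2 libraries. Of these 6 markers, *Tek*, *Emcn* and *Gpihbp1*, the endothelial anchor of lipoprotein lipase, were under 0.1 FPKM throughout. Neutrophil markers summed to 28.4 to 32.2 FPKM in *Mirc11-/-* M1 and 42.2 to 74.7 FPKM in wildtype M1 libraries, with 5 of 7, among them *S100a9* and *Mpo*, under 0.1 FPKM in all of them. In M2 libraries they summed to 1.40 to 2.55 FPKM in *Mirc11-/-* and 1.77 to 6.14 FPKM in wildtype cells. The part of the adipocyte, endothelial and neutrophil sums in the member values was not tested.

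Around the members, 110 further genes of fatty acid handling in 5 lists were tested. The lists were drawn up with earlier results of these data known, so their shares beside those of all genes are a description. Among 14 genes listed for lipoprotein lipase partners and lipoprotein receptors, 6 fell in *Mirc11-/-* M1 cells and none rose (0 also at an unadjusted p under 0.05, 42.9% called, beside 13.9% of all genes, median -0.19). The list also holds genes outside these classes. Of those, *Cav1*, *Scarb2* and the lysosomal acid lipase gene *Lipa* were among the 6 (*Lipa* at -0.24, limma adjusted p = 0.0499). *Cav1*, the caveolae gene caveolin 1, averaged 5.54 ± 0.51 FPKM in *Mirc11-/-* M1 and 12.1 ± 2.7 FPKM in wildtype M1 cells (SD, n = 3 each), a log2 difference of -0.99 (SE 0.12, adjusted p = 0.00034). *Scarb2*, a lysosomal membrane protein gene of the CD36 family, averaged 29.5 ± 1.2 FPKM in *Mirc11-/-* M1 and 38.3 ± 1.1 FPKM in wildtype M1 cells (-0.36, adjusted p = 0.0015). It fell in *Mirc11-/-* M2 cells too, at 33.8 ± 1.7 FPKM against 42.1 ± 2.3 FPKM in wildtype M2 cells (-0.31, adjusted p = 0.0076), as 1 of 2 genes of the list that passed there. *Lrp8*, an apolipoprotein E receptor gene, fell in M1 by 0.46, a call that ended without library Ako2272M1 (-0.43, adjusted p = 0.058). With quantile normalization 3 genes of this list fell in M1 in place of 6.

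Of 22 genes of triglyceride synthesis, droplets and lipolysis, 1 rose and 5 fell in *Mirc11-/-* M1 cells (27.3% called, beside 13.9% of all genes). *Bscl2*, which codes for the droplet assembly protein seipin, averaged 26.4 ± 0.98 FPKM in *Mirc11-/-* M1 and 37.6 ± 4.2 FPKM in wildtype M1 cells (-0.49, SE 0.073, adjusted p = 0.0015). The acyltransferase gene *Agpat5* fell by 0.35 in M1. Another, *Agpat3*, rose in *Mirc11-/-* cells by 0.24 in M1 (adjusted p = 0.0091) and by 0.31 in M2 (adjusted p = 0.0045), the only gene of its list to pass in M2 (4.55%, beside 4.59% of all genes). Of 32 beta-oxidation genes, 7 fell in M1 and none rose (2 at an unadjusted p under 0.05, 21.9% called), with a median of -0.04, and 3 fell and 1 rose with quantile normalization. *Crot*, a peroxisomal acyltransferase gene, fell by 0.29, and *Hadh*, of the mitochondrial spiral, by 0.33, a call that ended without library Ako2272M1 (-0.28, adjusted p = 0.053). In M2, 1 gene of this list fell (3.12%, beside 4.59% of all genes). This was *Cpt1a*, which codes for the entry step of mitochondrial oxidation (-0.27, adjusted p = 0.012, and -0.24 with adjusted p = 0.061 without library Ako2271M2). It was also among the 7 that fell in M1 (-0.21, limma adjusted p = 0.019).

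Among 24 regulators, 2 rose and 1 fell in *Mirc11-/-* M1 cells (12.5%, beside 13.9% of all genes), and 1 rose in M2 (4.17%, beside 4.59%), shares near those of all genes. *Rxra*, the partner of the PPAR receptors, was the one that fell in M1, at 4.88 ± 0.69 FPKM against 7.32 ± 0.39 FPKM in wildtype M1 cells (-0.51, SE 0.083, adjusted p = 0.0026). *Pparg*, the receptor gene whose known targets include *Fabp4*, *Cd36* and *Lpl*, did not pass between genotypes and averaged 0.567 ± 0.23 FPKM in *Mirc11-/-* M1 and 0.446 ± 0.044 FPKM in wildtype M1 cells, and 29.6 ± 2.9 FPKM in *Mirc11-/-* M2 and 28.8 ± 1.2 FPKM in wildtype M2 cells. Of 18 other carriers and acyl-CoA synthetases, 1 fell in M1 (*Acbd5*, a peroxisomal acyl-CoA-binding protein gene, by 0.25), which is 5.56%, beside 13.9% of all genes. In M2, 2 of them rose and 1 fell (16.7%, beside 4.59% of all genes), *Acss2*, *Acsf2* and *Acbd5*. None of the 110 genes passed in the comparison of the genotype difference between M1 and M2 (limma), where 1.85% of all genes did, and 19 of them had an unadjusted p under 0.05, 3 higher and 16 lower.

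**Figure D5:**
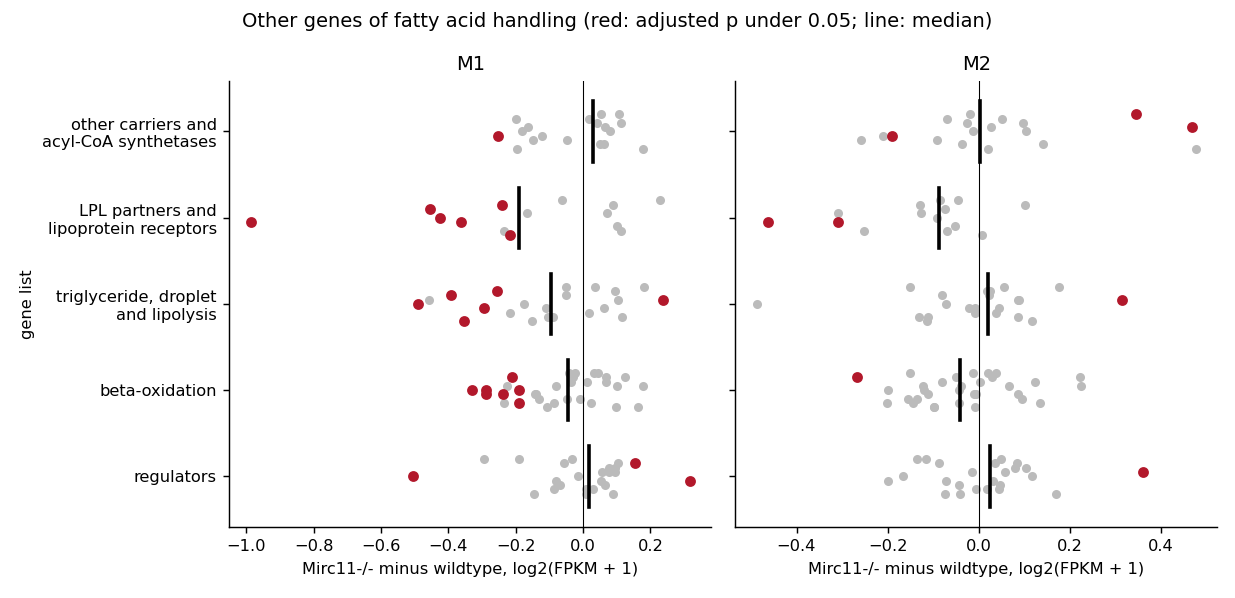
Difference between *Mirc11-/-* and wildtype cells on the log2(FPKM + 1) scale (horizontal axes) in M1 (left) and M2 (right) for the tested genes of 5 lists (vertical axis), each point a gene, red where the adjusted p was under 0.05, with the list's median as a line. *Cav1* is the leftmost point in M1 at -0.99, and the list medians lie between -0.19 and 0.03 in M1.

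The calls of the other genes named by the rule ended when single libraries were left out. In M1 these were *Nceh1* (-0.39, ended in 5 of 12 such fits), *Eci1* (-0.29, in 6), *Cebpd* (0.32, in 4) and *Tfe3* (0.15, in 10). In M2 they were *Cav1* (-0.46, in 9), *Acbd5* (-0.19, in 6), *Ppard* (0.36, in 4), *Acss2* (0.47, in 3) and *Acsf2* (0.35, in 2). Without the single libraries, the adjusted p of these 9 calls reached 0.065 to 0.17. The fit with only the libraries whose labels match leaves 1 wildtype library per state. In it the calls of *Acbd5*, *Agpat3*, *Agpat5*, *Crot* and *Lrp8* in M1 also ended. So did those of *Scarb2*, *Agpat3* and *Cpt1a* in M2.

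Between M1 and M2, 90 of the 110 list genes passed in *Mirc11-/-* cells (81.8%, beside 80% of all genes) and 92 in wildtype cells (83.6%, beside 78.6%), so these shares were near those of all genes. Over the 5 lists, 7 tested genes had a mean under 1 FPKM in M1 and 3 in M2, so the filter favoured their direction. Beta-oxidation had 2 higher and 26 lower genes in *Mirc11-/-* M1 cells and 2 and 27 in wildtype M1 cells, of 32, with medians of -0.78 and -0.68. Among the lower genes of this list, *Abcd2* was under 1 FPKM in M1 (0.350 FPKM in *Mirc11-/-* and 0.541 FPKM in wildtype cells). Of all tested genes, 26% were higher and 54% lower in *Mirc11-/-* M1 cells, and 26.6% and 52% in wildtype M1 cells. *Hadh* was at -1.69 and -1.56 on the log2 scale. Under median-of-ratios scaling the list still had 21 and 23 lower and 5 higher genes in *Mirc11-/-* and wildtype cells. Of the calls over all genes under that scaling, 51.5% and 51.4% were higher. *Pparg* fell too, at -4.30 in *Mirc11-/-* and -4.37 in wildtype M1 cells. Its mean was under 1 FPKM in M1, so it entered the test only through the M2 libraries, where it is high, and a lower M1 value was favoured by the filter. *Cebpa*, another adipogenic factor gene, fell as well, at -4.19 and -4.02. *Lipa*, the lysosomal acid lipase gene, was at -2.98 and -2.87. *Hilpda*, a hypoxia-induced droplet gene whose product inhibits lipolysis, rose by 2.59 and 3.13, and *Hif1a* by more than any other regulator in wildtype M1 cells, at 1.79. *Dbi*, the acyl-CoA-binding protein gene, fell (-1.67 and -1.76), and *Acot7*, an acyl-CoA thioesterase gene, rose by 1.25 and 1.21.

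The genes with the profile most like each member over the 12 libraries were found by the root mean square difference of log2 values centred on each gene's mean. For *Acsl1* these were *Slpi*, a secreted protease inhibitor gene (0.29), and *Inhba*, an activin subunit gene (0.31). *Slpi* averaged 139 FPKM in *Mirc11-/-* M1, 339 in wildtype M1, 26.8 in *Mirc11-/-* M2 and 32.2 in wildtype M2 cells, so in M2 its genotypes lay the other way round from those of *Acsl1*. For *Lpl* the nearest were the dectin-1 gene *Clec7a* (0.41) and the integrin gene *Itgax* (0.42), both further from *Lpl* than any other member's nearest genes were from that member. These distances were not scaled to the spread of each profile. Its SD over the libraries was largest for *Lpl* (2.86), beside 1.65 for *Acsl1* and 0.40 for *Plin2*. *Clec7a* averaged 6.02 and 11.5 FPKM in *Mirc11-/-* and wildtype M1 cells, and 419.6 and 514 FPKM in *Mirc11-/-* and wildtype M2 cells. For *Fabp4* they were *Anxa3*, an annexin gene (0.16), and *Lipn*, a lipase family gene (0.17), and *Anxa3* averaged 104 FPKM in *Mirc11-/-* M2 and 149 FPKM in wildtype M2 cells. The nearest of *Cd36* were *Nrp1* and *Tmem144*, of *Fabp5* *S100a1* and *C77080*, and of *Plin2* *Hpse* and *Wdpcp*, at 0.09 to 0.14. *Ndc1* and *Hells* were nearest to *Acsl3*, *Ube2o* and *Traf6* to *Acsl4*, and *Slc15a3* and *Psma6* to *Acsl5*, at 0.056 to 0.076.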

How the data were processed

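The deposited table gives FPKM per gene and library, which the authors made with STAR 2.5.1 and Cufflinks on mm9 per the submitters' processing notes. Annotation, strand and filters are not given in the sources used here. Read counts were not used here, so depth is known only in relative terms from the smallest steps of the values. The authors' 2 tables of fold changes and adjusted p-values were not used.

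Genes whose mean across libraries reached 1 FPKM were tested on log2(FPKM + 1) with limma 3.58.1 (R 4.3.3). One model of group means over all libraries was used, with an intensity trend, two-sided moderated tests and Benjamini-Hochberg adjustment over 10137 genes (threshold 0.05). Fold changes of low genes are understated on this scale. The code was tested on simulated data. Members and lists were chosen with earlier results of these data known. Named genes were all members, up to 3 per list and direction with the largest difference among called genes without overlap, and the 2 nearest profiles per member. *Pparg* and *Lipa* were named between genotypes, and the *Csf1r*, *Cd68*, *Slpi* and *Clec7a* levels were given, after values were seen. MicroRNAs, chromosomes and gene order came from RefSeq, and 3' UTRs from GENCODE vM21 (GRCm38.p6), a different build from that of the files. Of 10137 tested genes, 10107 were matched to a chromosome by symbol or synonym. Alternatives changed the pseudocount (0.1), filter, scaling, libraries in the fit, title number as a block, and left out each library.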

Additional observations from a re-analysis of the deposited data

Results flagged for a closer look

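*Acsl1* lay on different sides of wildtype in the polarized states. Every *Mirc11-/-* library was below every wildtype library in M1 (115 to 138 FPKM against 359.8 to 484 FPKM) and above every one in M2 (31.9 to 35.7 FPKM against 26.7 to 28.0 FPKM). The M2 difference alone was 0.29 on the log2 scale and did not pass (limma, adjusted p = 0.12). Of 10137 tested genes, 82 (0.809%) lay wholly lower in *Mirc11-/-* M1 and wholly higher in *Mirc11-/-* M2 libraries, and 51 (0.503%) the reverse. The difference of the genotype effects was -2.01 on the log2 scale. It was not tested, because the M1 contrast served to choose the gene.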

How the results depend on the processing

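The M1 differences of *Acsl1* (-1.87 to -1.63) and *Lpl* (-1.75 to -1.50) kept their direction in 18 alternatives. In *Mirc11-/-* against wildtype M2, members past the threshold numbered 1 higher (*Acsl1*, adjusted p = 0.046, range over alternatives 0.046 to 0.32) and 2 lower with only the 2 groups compared, in place of 0 and 1. With quantile normalization 2 were lower (*Plin2* added, adjusted p = 0.039, range 0.039 to 0.62). Leaving out 1 library gave 1 to 2 lower, with *Lpl* added without library Ako2273M1 (adjusted p = 0.028) or Wt2261M1 (0.048). With only the 6 libraries whose labels agree, which leaves 1 wildtype library per state assumed to vary like the others, *Acsl4* reversed in M1 (0.10) and in the difference between states (0.04), *Fabp4* reversed in the difference (-0.028), and *Lpl* passed in M2 (adjusted p = 0.036). The cause was not tested. Genes past the threshold in M1 numbered 1414, against 457 with those 6 libraries, 869 with the 2 groups compared, and 753 and 762 without Ako2272M1 and Wt2261M1. In M2 they numbered 465, against 117, 273, and 224, 251, 258 and 201 without Ako2271M2, Ako2272M2, Wt2260M2 and Wt2261M2. In the difference between states they numbered 188, against 58 with those 6 libraries, and 113, 79, 125, 292, 100 and 81 without Ako2271M1, Ako2272M1, Wt2261M1, Wt2262M1, Ako2271M2 and Wt2260M2. Calls that were higher made up 32.5% in *Mirc11-/-* and 33.8% in wildtype polarization as deposited, 51.5% and 51.4% with median-of-ratios scaling and 48.3% and 48.0% with quantile normalization. In M1 between genotypes they made up 42.9%, against 55.4% and 54.0%, and in the difference 50.5%, against 62.2% with median-of-ratios scaling.

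With the title number as a replicate block, 3 members rose and 6 fell in each genotype, and 7978 genes passed in *Mirc11-/-* and 7829 in wildtype polarization (8106 and 7970 without it). Deviations of libraries with the same number correlated at -0.29 to 0.06 in *Mirc11-/-* and -0.06 to 0.21 in wildtype cells, and 2 of 6 M1 libraries correlated best with their own number, so the numbers were not taken to pair the libraries.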
